A study of Rattus norvegicus with 16 samples.

Results

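The transcripts of Jun, Junb and Fos, 3 genes whose proteins build the transcription factor AP-1, were followed in NG108 cells given the antimalarial drug mefloquine. The members are all probe sets that the platform annotation assigns to Jun, Junb or Fos alone, which gave 7 of the 972 probe sets for genes, and 3 of the 549 genes named on the array. Jun had 4 probe sets, Junb 1 and Fos 2. The genes were chosen by their intensities on mefloquine and DMSO arrays in an earlier reading of this series, so the differences between those groups are given here as a description without a test.

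The study held 16 Affymetrix arrays of rat probes in 2 groups of 8. The control cells received 0.25% DMSO, the solvent, and the treated cells received 4400 ng/ml mefloquine, both for 2 hours, and 10 µg of total RNA went onto each array. The labels do not say whether the mefloquine cells also received DMSO, nor whether samples of 1 group came from separate cultures, so spreads and p-values describe these samples and may be technical. The labels call NG108 a rat neuronal culture, although the line is known to come from the fusion of a mouse neuroblastoma with a rat glioma. Rat probes may read its mouse transcripts less well.

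AP-1 is a dimer of proteins with a basic region and a leucine zipper. Jun proteins can pair with each other or with Fos proteins, whereas Fos proteins need a Jun partner to bind DNA. Jun, Junb and Fos are immediate early genes, whose transcripts can rise soon after a stimulus without new protein synthesis. In neurons Jun is known as a target of the stress kinase JNK, and Fos as a marker of recent activity and calcium or serum signals. JunB can replace Jun in the dimer and is a weaker activator at many sites.

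Intensities are on the authors' scaled linear scale. Values below a floor of 426.5 units were raised to it before log2 was taken, and the 545 probe sets that exceeded it on 8 or more of the 16 arrays were tested. By that filter 5 of the 7 member probe sets were tested, 3 for Jun and 1 each for Junb and Fos. DMSO control 3 stood apart, with the lowest median correlation with the other arrays (0.855) and a 3' over 5' intensity ratio of 21.3 for beta-actin, against 2.67 at most elsewhere. Mefloquine 1 and 2 were next by that correlation, at 0.901 and 0.912. The next highest beta-actin ratios were 2.67 on DMSO 8 and 2.58 on mefloquine 8, with 1.95 at most on the remaining arrays. Arrays numbered 6 to 8 also differed from those numbered 1 to 5 in 68 of the 545 tested probe sets (12.5%) by limma's test with Benjamini-Hochberg adjustment, a division that was noticed on these arrays. Of the 68, 12 were higher in arrays 6 to 8, and 36 of 78 were higher after each array was divided by its median positive value, which moved the median of all these differences from 0.03 to 0.15 (log2). The cell type could not be checked on neuronal genes, since 0 of 20 listed neuronal markers had a probe set. Of 14 glial markers 2 were measured, the intermediate filament gene Vim and the secreted chaperone gene Clu, both above the floor on all 16 arrays. The summed intensity of these glial markers ran from 16042 to 21447 on DMSO arrays and from 13742 to 23182 on mefloquine arrays. Most of it was Vim, with a DMSO mean of 16895. Cyp2e1 and Ins2, from a list of 18 markers of other cell types, each exceeded the floor on 15 of the 16 arrays. The summed intensity of that list ran from 1600 to 3686 on DMSO arrays and from 1827 to 3407 on mefloquine arrays. Values above the floor thus do not identify the cell type.

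Jun was higher in mefloquine cells by the probe sets rc_AI175959_at and rc_AA945867_at. The tested probe set X17163cds_s_at was higher too, but it passed the filter mainly through the mefloquine arrays, so its direction adds no support. By the brightest, rc_AI175959_at, the DMSO arrays ran from 760.2 to 2530.5 with a median of 1654.4, and the mefloquine arrays from 2575.7 to 11126.4 with a median of 5095.0. The groups did not overlap, although the lowest mefloquine array (replicate 8) lay only just above the highest DMSO array (replicate 1). Mefloquine 4 was the highest of all at 11126.4, well above mefloquine 3 at 6412.6 and mefloquine 2 at 6406.2. DMSO 3 and DMSO 8 were the lowest controls, at 760.2 and 790.5. Among all tested probe sets, 3 (0.55%) had every mefloquine array above the highest DMSO array, and this Jun probe set was 1 of them. In bulk RNA, more cells with the transcript and more transcript per cell cannot be told apart.

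The other tested Jun probe sets were dimmer and the groups overlapped in both. By rc_AA945867_at the DMSO arrays ran from 331.2 to 1219.9 (median 781.4) and the mefloquine arrays from 922.1 to 2771.6 (median 1605.1). DMSO 3 was the highest control here, and 6 of 8 mefloquine arrays exceeded it, the exceptions being mefloquine 7 (956.1) and 8 (922.1). By X17163cds_s_at the DMSO arrays ran from -171.9 to 821.3 (median 43.7) and the mefloquine arrays from 124.9 to 1815.0 (median 1293.2). DMSO 4 was the highest control, and again 6 of 8 mefloquine arrays exceeded it, all but mefloquine 5 (593.5) and 8 (124.9). This last probe set exceeded the floor on 3 DMSO and 7 mefloquine arrays, so it entered the test mainly through the treated group. Of all tested probe sets, 8 (1.47%) had at least 6 mefloquine arrays above the highest DMSO array.

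On the floored log2 scale the Jun differences, mefloquine minus DMSO, were 1.83 ± 0.29 (SE) for rc_AI175959_at, 1.14 ± 0.27 for X17163cds_s_at and 1.11 ± 0.26 for rc_AA945867_at (n = 8 each). They ranked 2, 5 and 7 from the top among the 545 tested probe sets, where the median difference was -0.01. The size for X17163cds_s_at depends on the floor, since 5 DMSO arrays lay below it, and it was 1.88 with the floor at the 10th percentile of positive values. Without the 3 arrays that stood apart the differences of rc_AI175959_at, rc_AA945867_at and X17163cds_s_at were 1.70, 1.04 and 1.02. The fourth Jun probe set, rc_AA944014_at, did not exceed the floor on any array, with values from -650.4 to 220.7, and gives no measure of Jun.

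**Figure D1:**
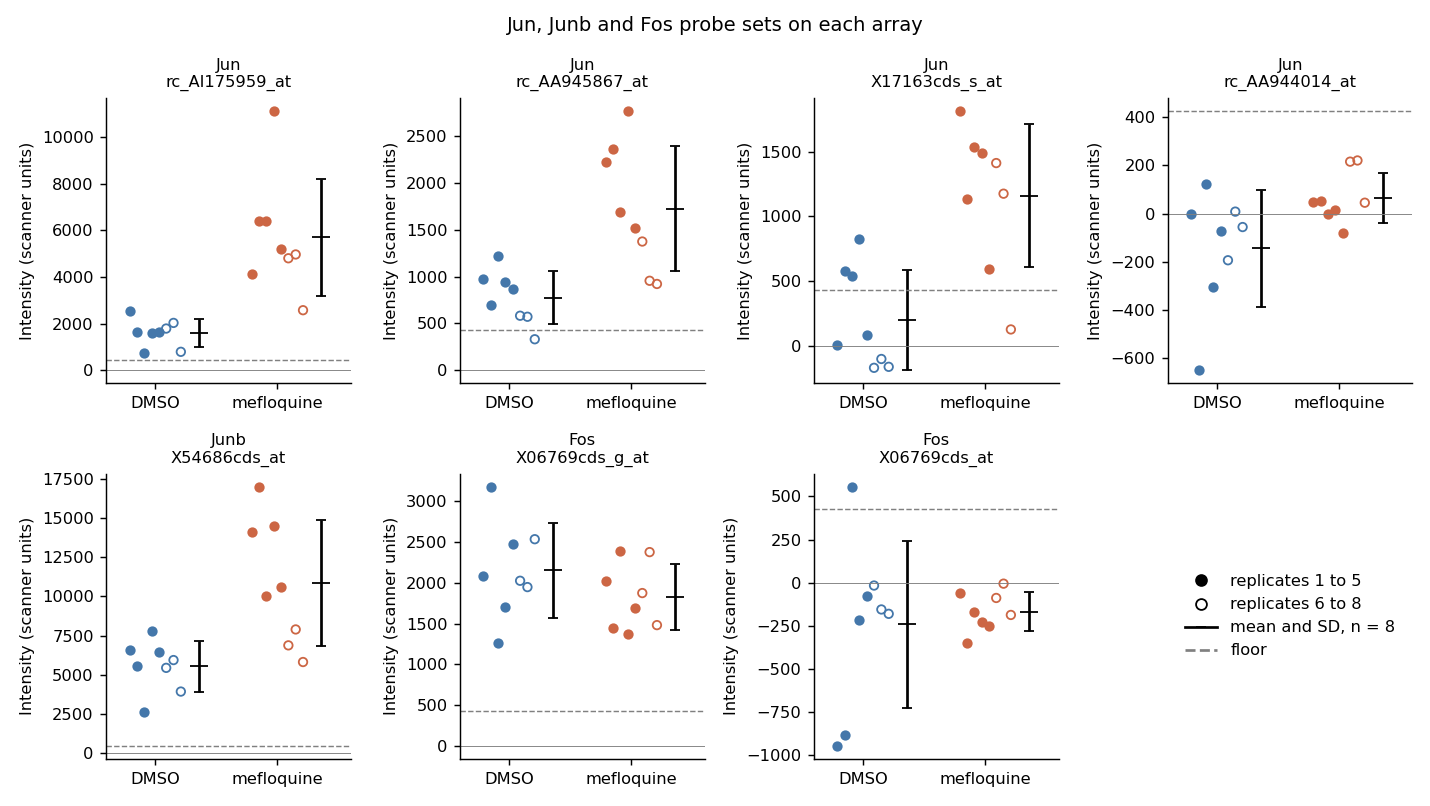
Intensity of each Jun, Junb and Fos probe set on the 8 DMSO (blue) and 8 mefloquine (orange) arrays, in scanner units on a linear axis of its own in each panel. Filled points are replicates 1 to 5 and open points replicates 6 to 8, black marks give mean and SD (n = 8), and the dashed line is the floor of 426.5. For Jun rc_AI175959_at every mefloquine point lies above every DMSO point, while the Fos groups overlap.

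Junb was also higher with mefloquine, but with overlapping groups and a smaller difference. Its probe set X54686cds_at ran from 2597.9 to 7781.7 on the DMSO arrays (median 5750.6) and from 5802.5 to 17040.1 on the mefloquine arrays (median 10326.8). On 6 of 8 mefloquine arrays Junb lay above the highest DMSO array, DMSO 4, and the exceptions were mefloquine 6 at 6869.7 and mefloquine 8 at 5802.5. The highest values were those of mefloquine 2 (17040.1), 4 (14531.4) and 1 (14120.3), and the lowest was that of DMSO 3 (2597.9). The log2 difference was 0.95 ± 0.25 (SE, n = 8 each), rank 9 of 545. Without the 3 arrays that stood apart it was 0.60, as mefloquine 1 and 2 are among the highest Junb arrays and DMSO 3 is the lowest control. Mefloquine 8, with a beta-actin 3' over 5' ratio of 2.58, was the lowest mefloquine array by Junb and every tested Jun probe set. The part of that ratio was not tested.

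The Junb difference was unequal between the replicate ranges. In replicates 1 to 5 the groups did not overlap, with DMSO arrays from 2597.9 to 7781.7 and mefloquine arrays from 10031.2 to 17040.1. In replicates 6 to 8 the DMSO arrays ran from 3910.1 to 5927.6 and the mefloquine arrays from 5802.5 to 7889.6, with 2 of 3 mefloquine arrays above the highest control. For Junb the first range gave a log2 difference of 1.26 and the second one of 0.44. Limma's interaction of treatment and range was -0.82 ± 0.42 (SE) for Junb, with an adjusted p of 0.99 over all tested probe sets (0.0734 unadjusted), so a difference between the ranges did not pass. That limma test called 0 of the 545 probe sets (0%), and 23 reached an unadjusted p under 0.05. For Jun the differences in the 2 ranges were 2.04 and 1.47 by rc_AI175959_at, 1.16 and 1.03 by rc_AA945867_at, and 1.19 and 1.06 by X17163cds_s_at.

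**Figure D2:**
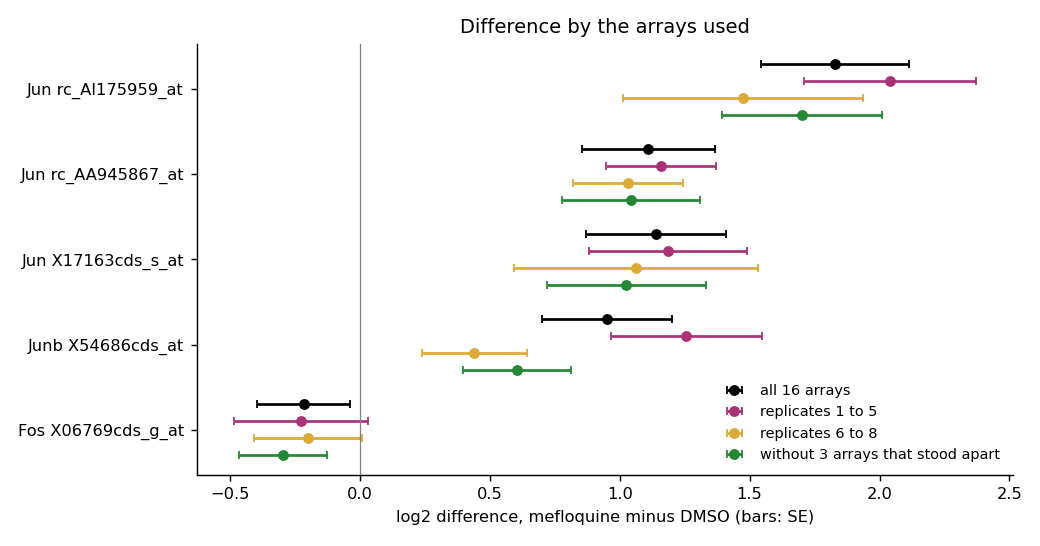
Log2 difference, mefloquine minus DMSO, of the 5 tested Jun, Junb and Fos probe sets, with the SE of the limma fit as bars, for all 16 arrays, replicates 1 to 5, replicates 6 to 8, and without the 3 arrays that stood apart. Jun and Junb lie above 0 in each set of arrays, and the Junb difference falls from 0.95 over all arrays to 0.44 in replicates 6 to 8.

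The rat promoter of Junb is shown because this gene differed together with Jun. Of the 3 genes, Junb was matched in the RefSeq promoter table (build GRCr8), and Jun and Fos were not. The 250 bases before its annotated start lie on the + strand at chr19:40080876-40081125 and are given 5′ to 3′, with matches to the searched motifs in capitals.
Junb: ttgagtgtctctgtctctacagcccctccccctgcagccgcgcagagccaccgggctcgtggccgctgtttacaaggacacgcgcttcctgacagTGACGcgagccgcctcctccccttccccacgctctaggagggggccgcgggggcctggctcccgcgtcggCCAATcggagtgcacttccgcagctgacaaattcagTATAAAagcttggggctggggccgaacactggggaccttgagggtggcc

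Both strands were searched for 7 motifs, and the same 250-base windows of all 33469 promoters in the table gave the background. The window held the TATA box letters TATAAA 49 bases before the start (12.9% of promoters hold them) and the CCAAT box letters CCAAT 85 bases before it (34.0% of promoters). It held TGACG, the core of the cyclic AMP response element, 155 bases before the start (18.2%). The full element TGACGTCA, which contains that core, was not found in this window (1.59% of promoters), nor was the AP-1 site TGANTCA (6.34%). The serum response element (1.5%) and the NF-kappa-B site (6.33%) were not found either. Letters alone do not show that a factor binds.

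Fos was not higher with mefloquine, and its groups overlapped. By X06769cds_g_at the DMSO arrays ran from 1263.3 to 3180.8 (median 2057.2) and the mefloquine arrays from 1372.5 to 2392.0 (median 1782.0). No mefloquine array lay above the highest control, DMSO 2, and only DMSO 3 lay below the lowest mefloquine array. Of the 8 mefloquine arrays, 6 lay below the DMSO median and the exceptions were mefloquine 3 (2392.0) and 7 (2377.4). The log2 difference was -0.22 ± 0.18 (SE, n = 8 each), with a 95% interval from -0.59 to 0.16. That interval leaves room for a modest decrease and for little or no increase, and the difference ranked 467 of 545. It kept its sign in all 31 alternative settings, from -0.32 to -0.13. Those settings reuse the same arrays and lend it no separate support. The second Fos probe set, X06769cds_at, which names the same source sequence, exceeded the floor only on DMSO 3 (557.5). On the other 15 arrays it lay between -949.7 and -6.5, so it gave no usable level. The Fos probe sets thus disagree in level, and which of them reads the Fos transcript was not tested. All Fos results here rest on X06769cds_g_at alone.

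The change of the Jun family against that of Fos was taken on each array from the brightest probe sets, as the log2 value of Jun or Junb minus that of Fos, set to 0 at the DMSO mean. For Jun the DMSO arrays lay between -1.20 and 0.76 and the mefloquine arrays between 1.28 and 3.51, with no overlap. The Jun change exceeded the Fos change by 2.04 ± 0.34 (log2, SE), a factor of 4.13, and by 2.00 without the 3 arrays that stood apart. By the dimmer Jun probe sets the excess over Fos was smaller, at 1.33 ± 0.39 for rc_AA945867_at and 1.36 ± 0.32 for X17163cds_s_at (log2, SE). For Junb the DMSO arrays lay between -0.72 and 0.85 and the mefloquine arrays between 0.39 and 2.22, so the groups overlapped, and 4 of 8 mefloquine arrays were above every control. The Junb change exceeded the Fos change by 1.17 ± 0.31 (log2, SE), a factor of 2.25. It was 0.90 without the 3 arrays, 1.48 for the first 5 replicate numbers alone and 0.64 for replicates 6 to 8 alone. By its brightest probe set Jun in turn changed more than Junb by 0.88 ± 0.21 (log2, SE), and by 1.10 without the 3 arrays. By rc_AA945867_at the excess over Junb was 0.16 ± 0.27 and by X17163cds_s_at 0.19 ± 0.31, less than their own SEs, and 0.44 and 0.42 without the 3 arrays. All of these come from the contrast by which the genes were chosen and carry no test.

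**Figure D3:**
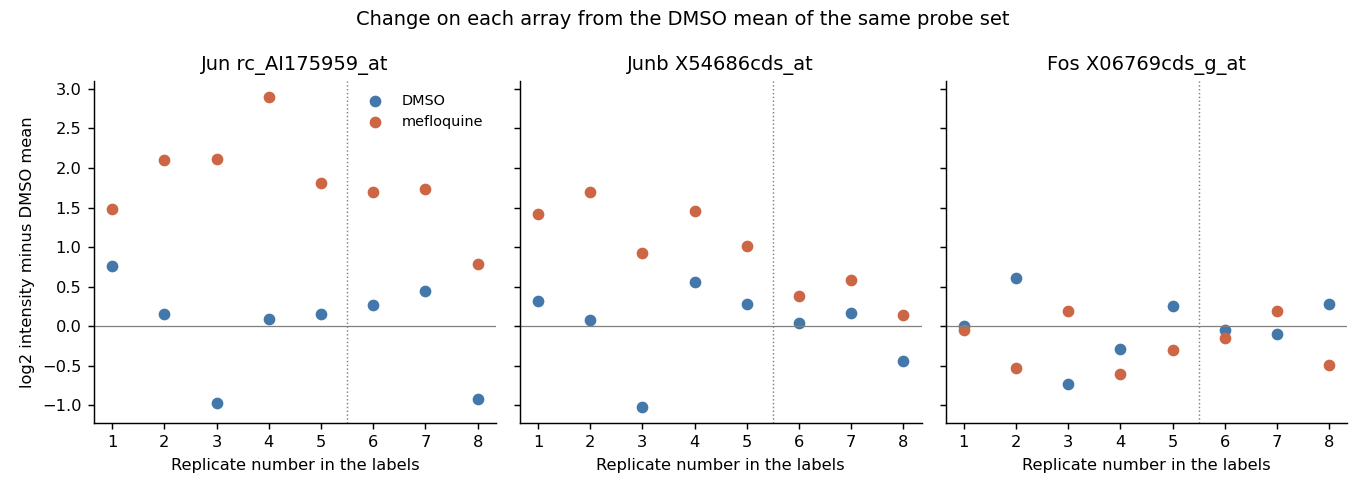
Log2 intensity on each array minus the DMSO mean of the same probe set, for the brightest Jun, Junb and Fos probe sets, against the replicate number in the labels, with DMSO in blue, mefloquine in orange and a dotted line between replicates 5 and 6. Jun on mefloquine arrays lies 0.79 to 2.90 above its DMSO mean, Junb 0.14 to 1.69 above, and Fos between -0.60 and 0.20.

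Levels between the replicate ranges, with treatment in the model, are a measure that did not choose the members. The division into ranges was itself noticed on these arrays, so its p-values are a description and not independent support. The Jun probe set rc_AA945867_at was lower in replicates 6 to 8 than in 1 to 5, at -0.89 ± 0.16 (log2 difference and its SE; limma adjusted p = 0.000986). Among all tested probe sets 10.3% passed as lower in that comparison. On DMSO arrays its mean was 940 ± 191 in replicates 1 to 5 (SD, n = 5) and 495 ± 142 in replicates 6 to 8 (SD, n = 3). On mefloquine arrays the means were 2113 ± 510 (SD, n = 5) and 1085 ± 253 (SD, n = 3). The call held after division by the median (-0.77), in all 16 fits with 1 array left out, and without the 3 arrays that stood apart (-0.78, limma adjusted p = 0.00446).

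The other members did not pass between the ranges. The brightest Jun probe set differed by -0.39 ± 0.28 (log2, SE; limma adjusted p = 0.452), X17163cds_s_at by -0.40 ± 0.26 (adjusted p = 0.398), Junb by -0.53 ± 0.23 (adjusted p = 0.156) and Fos by 0.09 ± 0.19 (adjusted p = 0.83). Junb passed, as lower in replicates 6 to 8, when DMSO 3 was left out (-0.67, limma adjusted p = 0.00764) and when the 3 arrays were left out (-0.56, limma adjusted p = 0.0147). It also passed with each array's GAPDH ratio in the model (-0.59, limma adjusted p = 0.0161) and with array quality weights (-0.53, limma adjusted p = 0.0123), and in no other setting tried. The Jun probe sets rc_AA945867_at and rc_AI175959_at did not differ detectably in their shift between the ranges (difference of -0.50 on the log2 scale; exact permutation test within treatments, two-sided, 3136 divisions, p = 0.125). Without the 3 arrays that stood apart that difference was -0.18 (exact permutation test, 700 divisions, p = 0.391). On DMSO 3 they stood at opposite ends of the controls. That array had the highest DMSO value by rc_AA945867_at (1219.9) and the lowest by rc_AI175959_at (760.2), by Junb and by Fos. Its 3' over 5' ratio of 21.3 for beta-actin and of 4.62 for GAPDH was the highest of all arrays, and its part in these values was not tested.

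Whether Jun, Junb and Fos varied together was tested within each treatment over its 8 arrays, apart from the contrast that chose them. Across DMSO arrays Jun and Junb had a Pearson r of 0.839 (exact permutation p = 0.0158, two-sided) and a Spearman rho of 0.524 (exact permutation p = 0.197). Adjusted over the 10 relations computed, these p-values were 0.158 and 0.492 (exact permutation tests, Benjamini-Hochberg). Without DMSO 3 and 8, the lowest controls for Jun, r was -0.06, so the relation rests on those arrays. They were also the controls with the highest beta-actin 3' over 5' ratios, 21.3 and 2.67, and the part of these was not tested. Across mefloquine arrays r was 0.657 and rho 0.619 (exact permutation p = 0.0704 and 0.115, adjusted 0.235 and 0.492), and r was 0.24 without mefloquine 4 and 8. Jun and Fos had r of 0.283 on DMSO and -0.153 on mefloquine arrays (exact permutation p = 0.49 and 0.728, adjusted 0.732 and 0.882), with r of -0.22 and -0.20 without the same arrays. Junb and Fos had r of 0.396 and -0.264 (exact permutation p = 0.326 and 0.512, adjusted 0.651 and 0.732). Without the 2 arrays farthest from the median of Junb these were -0.55 and -0.49, so the sign on DMSO arrays turned. Within the replicate ranges there were 5 and 3 arrays per treatment, too few for a correlation.

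Among the Jun probe sets, correlations within a treatment did not pass either. Across mefloquine arrays rc_AI175959_at had r of 0.722 with rc_AA945867_at (exact permutation p = 0.0378, adjusted 0.189) and 0.564 with X17163cds_s_at (exact permutation p = 0.169, adjusted 0.421), falling to 0.18 and -0.21 without mefloquine 4 and 8. Across DMSO arrays the correlation with rc_AA945867_at was 0.061 (exact permutation p = 0.882, adjusted 0.882). That with X17163cds_s_at is not read, since 5 of the 8 DMSO arrays lay below the floor there.

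The genes most like each member were found by Pearson r of log2 values over the 16 arrays among 458 other tested probe sets with 1 symbol, as a description. The arrays of both groups are pooled, so r reflects the treatment difference as well as variation between arrays. For Jun they were the desaturase gene Scd2 (0.896), the NF-kappa-B inhibitor gene Nfkbia (0.884), the stress factor gene Ddit3 (0.806), the heme oxygenase gene Hmox1 (0.693) and a dimmer probe set of Gadd45a (0.684), a growth arrest gene whose other tested probe sets had r of 0.058 and 0.291. For Junb they were the growth factor gene Vegfa (0.836, and 0.568 by its other tested probe set), Nfkbia (0.827), Scd2 (0.775), the prostacyclin synthase gene Ptgis (0.756) and Hmox1 (0.755). Nfkbia, Scd2 and Hmox1 were thus on both lists. For Fos they were Gstm2 (0.8003), Cox6a2 (0.798), the signal transducer gene Stat5b (0.7798), Ephx1 (0.725) and Rpa3 (0.7197), none of them shared with Jun or Junb. Without the 3 arrays that stood apart, Ptgis fell to 0.511 and Hmox1 to 0.575 with Junb, while Vegfa, Nfkbia and Scd2 had 0.828, 0.833 and 0.869. With Jun, Hmox1 fell to 0.571 and Gadd45a to 0.632, while Scd2, Nfkbia and Ddit3 had 0.902, 0.917 and 0.930.

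Taken as deviations from the group means, which removes the treatment difference, the genes most like Jun were Scd2 (r = 0.878), the kinase gene Taok1 (0.806) and the chaperone gene Hsp90aa1 (0.797), whose other tested probe set had r of -0.527. Those most like Junb were the interleukin receptor gene Il4r (0.882), the p38 kinase gene Mapk14 (0.881) and Vegfa (0.859). The 3 other tested Mapk14 probe sets had r between 0.281 and 0.649, and the other tested Vegfa probe set had 0.652. Those most like Fos were again Gstm2 (0.793), Cox6a2 (0.788) and Stat5b (0.764). The other tested Gstm2 probe set had r of 0.053. The lists by deviations, of 3 genes each rather than 5, had no gene in common between Jun and Junb. Without the 3 arrays that stood apart, Scd2 and Jun had r of 0.933 in deviations and 0.902 over the arrays as measured. Scd2 itself differed between treatments by 0.41 ± 0.14 (log2, SE) and did not pass (limma adjusted p = 0.464).

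**Figure D4:**
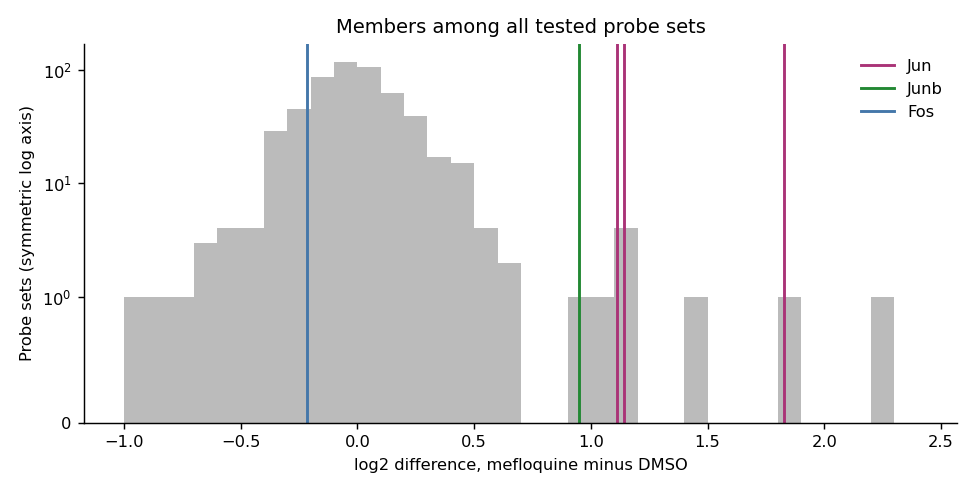
Number of probe sets by log2 difference, mefloquine minus DMSO, for all 545 tested probe sets in bins of equal width, on a symmetric log axis, with coloured lines at the tested Jun, Junb and Fos probe sets. The Jun lines at 1.11, 1.14 and 1.83 and the Junb line at 0.95 lie among the few largest differences, and the Fos line at -0.22 lies within the bulk.

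Of the 14 genes in the AP-1 family list, 5 had a probe set and 3 were tested, the 3 members. Jund, a Jun family gene that is often expressed steadily, exceeded the floor only on mefloquine 1 (1054.6) and 2 (1279.9), and lay between -484.9 and 148.4 on the other 14 arrays. Those 2 arrays stood apart by their median correlation with the other arrays, and the part of this in the Jund values was not tested. Fosl2, a Fos family gene, did not exceed the floor on any array (-718.6 to 235.5). Fosb, Fosl1, Atf2, Atf3 and the other genes of the list were not measured here by a probe set of 1 symbol. Of 26 other genes for factors with the same kind of DNA-binding domain, 4 had a probe set and 2 were tested. Ddit3, which encodes CHOP, rose (2.22 ± 0.26, log2, SE; limma adjusted p = 9.28e-05), and Creb1, whose protein acts on the Fos promoter, differed by 0.14 ± 0.15 without passing.

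Genes of kinases upstream of AP-1 had small differences in both directions. Of 31 genes in the JNK, p38 and ERK list 13 had a probe set and 11 were tested, and 0 passed limma's test, with 0 at an unadjusted p under 0.05. Over all 545, limma called 7 (1.28%), and 23 reached an unadjusted p under 0.05, so a count of 0 among 11 is near the background. Their median log2 difference was 0.05, from -0.35 to 0.38, beside -0.01 over all tested probe sets. Mapk9, a JNK gene, differed by -0.04 by its brightest probe set, and Mapk10, another JNK gene, by 0.15. The kinase gene Map3k1, which acts above JNK, differed by 0.38 ± 0.26 (log2, SE), Map3k12 by 0.23 ± 0.26, Map2k2 by -0.35 ± 0.24 and Mapk7 by -0.35 ± 0.20. The Map2k2 value comes from rc_AA963674_g_at and was 0.06 without the 3 arrays that stood apart. Its companion probe set rc_AA963674_at is annotated to Eef2, and the other tested Map2k2 probe set was at 0.02 ± 0.15. Transcript levels do not show kinase activity. Of 12 genes for MAP kinase phosphatases and feedback proteins 3 were tested and 0 passed, with 1 at an unadjusted p under 0.05 in limma. That gene was the ERK phosphatase gene Dusp6, at -0.94 ± 0.38 (log2, SE; limma adjusted p = 0.821), and it was at -0.30 in replicates 6 to 8.

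Among 4 tested genes of the 40 on the list of other immediate early genes, 1 rose, Nfkbia, by 1.44 ± 0.21 (log2, SE; limma adjusted p = 0.00057). Myc, a growth regulator, differed by -0.02 ± 0.19, the cyclooxygenase gene Ptgs2 by -0.25 ± 0.15 and Gadd45a by -0.03 ± 0.47, each by its brightest probe set. Nfkbia was also the 1 tested gene of 11 in the NF-kappa-B list, and Creb1 the 1 tested of 20 in the list of serum and calcium response factors. Of 18 markers of other cell types 2 were tested, Cyp2e1 (log2 difference 0.09) and Ins2 (0.16), and neither passed. Of 57 classical AP-1 targets 16 had a probe set and 11 were tested. In limma 0 of these passed and 2 had an unadjusted p under 0.05, Hmox1 at 0.51 ± 0.16 (log2, SE; limma adjusted p = 0.266) and the cyclin gene Ccnd1 at 0.40 ± 0.18 (limma adjusted p = 0.982). The other tested Ccnd1 probe set was at 0.03 ± 0.25. At 1.28% called over all probe sets, 0 of 11 is again near the background. The median of the 11 was -0.00, with 5 above 0. The quinone reductase gene Nqo1 differed by -0.34 ± 0.19 and the cytokine gene Il1b by 0.23 ± 0.21. Many listed targets, among them most matrix metalloproteinase genes, had no probe set of their own among those used here, and a 2-hour exposure was the only time measured.

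**Figure D5:**
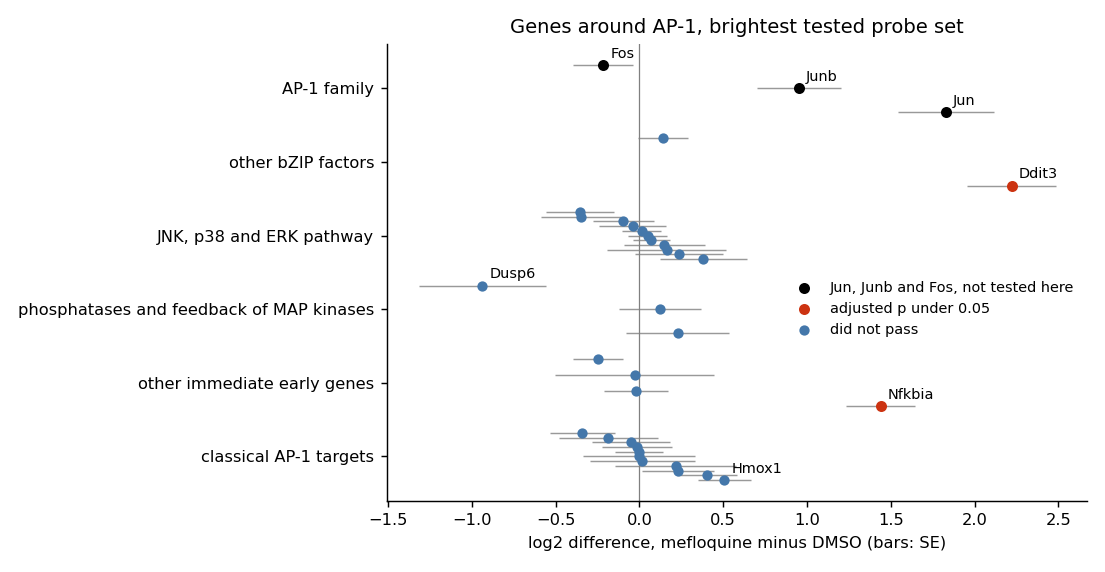
Log2 difference, mefloquine minus DMSO, of each tested gene around AP-1 by its brightest tested probe set, with SE bars, in 6 gene lists, black for Jun, Junb and Fos, which carry no test, red where limma's adjusted p was under 0.05 and blue where it was not. Ddit3 and Nfkbia are red at 2.22 and 1.44, and the kinase and AP-1 target lists lie around 0.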

How the data were processed

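The deposited values are intensities, 1 column per array, which the authors multiplied by the standard chip scaling factors and left otherwise untransformed, per the labels. RNA was extracted with RNA STAT-60, per the labels. No source used here names the scanner software. There were 1031 probe sets, 59 of them controls, and 26.9% of values were at or below 0. Of the 972 gene probe sets, 821 carried 1 symbol in the platform annotation, 38 several and 113 none.

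Lower values were set to 426.5, the positive values' 25th percentile, and log2 was taken, so differences of dim probe sets are understated. The 545 probe sets that exceeded this floor on 8 or more of 16 arrays entered limma 3.58.1 (R 4.3.3; lmFit and eBayes, treatment as the only term), with Benjamini-Hochberg adjustment over all of them and calls at 0.05. Replicate range (1 to 5 against 6 to 8) and its interaction with treatment were further terms. The fit was tested on simulated data. At most 0.1% of values were identical between any 2 arrays, and the number of arrays limits the precision.

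The members, gene lists and replicate ranges were chosen with earlier results of these data known. Named were every member probe set, every measured AP-1 family gene, up to 4 genes per list with the smallest p plus called ones, and the 5 genes most like each member (3 by deviations). Fosb, Fosl1, Atf2 and Atf3 were named as unmeasured, and Mapk9 and Mapk10 after their values were seen. Alternatives covered scaling, floor, filter, model and arrays left out.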

Additional observations from a re-analysis of the deposited data

Results flagged for a closer look

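Within each treatment the highest and lowest array of 9 measures, the 5 tested member probe sets, the changes of Jun and Junb against Fos, and the 3' over 5' ratios, were set against the closest other array with Dixon's 95% critical value. Of 18 searches 3 found an array far from the rest, DMSO 3 in 2 of them and DMSO 4 in 1. Chance alone would give about 1 in 20 in independent searches without tied values, which these were not. The changes against Fos reuse the member probe sets, and the values behind the DMSO 4 result are partly tied at the floor. DMSO 4 was high by the Jun probe set X17163cds_s_at, at 9.68 on the log2 scale with the next control at 9.16, and 5 of the other DMSO arrays were at the floor there. DMSO 3 had log2 ratios of 3' over 5' of 2.21 for GAPDH and 4.42 for beta-actin, where the next DMSO arrays were at 0.56 and 1.42.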

How the results depend on the processing

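The alternatives reuse the same arrays, so a kept sign is no separate support. The differences of the Jun, Junb and Fos probe sets kept their sign in every alternative that gave a value, and differed from the reported value by less than 1 SD between replicates. The exception to the latter was X17163cds_s_at with the floor at the 10th percentile (1.88). X17163cds_s_at was not tested with the floor at the 40th percentile or when all 16 arrays had to exceed the floor, and rc_AA945867_at was not tested in the latter. Over the alternatives Jun by rc_AI175959_at ran from 1.47 to 2.04, Junb from 0.44 to 1.26, the Jun change minus the Fos change from 1.67 to 2.27 and the Junb change minus the Fos change from 0.64 to 1.48.

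The count of called probe sets between treatments, 7 as reported, was 4 with quantile normalization, with the floor at the 10th or the 40th percentile and with an offset in place of the floor, 3 when all 16 arrays had to exceed the floor and 1 in replicates 6 to 8 alone, where there are fewer arrays. With 1 array left out it ran from 4 to 8, and it was 4 without DMSO 2, 6, 7 or 8 or mefloquine 3 or 4. Among the 7 were the Jun probe sets rc_AA945867_at and X17163cds_s_at, both just under the call threshold. They passed in 4 and 3 of the 16 fits with 1 array left out. Those calls are no support for Jun, since this contrast chose it. What else moved the count was not tested. The count between the ranges, 68 as reported, was 43 with the floor at the 40th percentile, 25 when all 16 arrays had to exceed the floor, 128 with array quality weights and 112 without the 3 arrays that stood apart. The Fos difference between the ranges, 0.09 as reported, turned to -0.025 with array weights and to -0.012 without those 3 arrays. With quantile normalization 34 of 76 probe sets called between the ranges were higher in replicates 6 to 8. The left-out arrays and the difference of each member between the ranges were added after the data had been seen.

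The replicate number as a replicate block gave 8 called probe sets. The main fit did not take the numbers as pairs. Deviations of same-numbered arrays correlated above 0.1 in 7 of 8 cases, at 0.45 to 0.59 for replicates 5 to 8 and at 0.06 to 0.19 for replicates 1 to 4. Of the 8 DMSO arrays, 2 correlated best with their own number. These values do not settle whether the numbers mark pairs.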
